A study of Rattus norvegicus with 9 samples.

Results

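Fibro-adipogenic progenitors are the resident connective tissue cells of skeletal muscle, and 10 genes that mark them were followed across 9 libraries of the pubococcygeus, a pelvic floor muscle, of rats. The genes were Pdgfra, Cd34, Dpp4, Pi16, Clec3b, Mfap5, Smoc2, Hic1, Dpt and Scara5. They were taken by symbol from the count and FPKM tables, where each symbol had 1 row, so they are 10 of 30518 rows, and all 10 passed the filter on low counts. Their counts ran from 102 to 22205 per library. All rats were female Sprague-Dawley, with 3 libraries in each of 3 groups. In stimulated rats ovariectomy on both sides was combined with vaginal distension by a catheter (8 Fr) whose balloon held 3 mL of saline and carried 120 g for 4 h, a model of stress urinary incontinence (SUI). From 1 week later they received transvaginal electrical stimulation of the pelvic floor, a current of 20 mA in pulses of 200 µs at 50 Hz, for 30 min on 5 days of the week over 2 weeks. SUI rats had the same operation and no stimulation, and blank rats had neither. The model thus combines ovary loss with distension injury, and the design has no sham stimulation. The study put 8 of its 24 rats in each group, and how the libraries relate to those rats is not stated beyond a replicate number, so the p-values speak only for how far these libraries vary.

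These progenitors lie between the muscle fibres and around vessels. In mouse muscle they support regeneration by secreting matrix and growth factors, and they can become fibroblasts or adipocytes when repair goes wrong. Platelet-derived growth factor signals through PDGFRA are a classical regulator of them. The markers differ in kind: Pdgfra encodes a receptor tyrosine kinase, Cd34, Dpp4 and Scara5 other surface proteins, Pi16 and Clec3b secreted proteins, Mfap5, Smoc2 and Dpt matrix proteins, and Hic1 a transcription factor. Pi16 and Dpp4 are known in mouse as marks of fibroblasts around vessels and in fascia. Not all are specific, since endothelial cells also carry CD34.

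Total counts per library ran from 50833480 to 147650284, with a median of 110699836. Blank replicate 1 had the lowest total, its mitochondrial genome took 32.9% of counts against 13.4% to 17.7% in the other 8 libraries, and its median correlation with the others over genes, 0.920, was the lowest of the 9. The markers of skeletal muscle fibres were all detected, with a summed level of 163250 to 207130 CPM (counts scaled to the adjusted library size) in stimulated, 114530 to 199860 in SUI and 160230 to 223410 in blank libraries. The lowest sum, 114530 CPM, was that of SUI replicate 1, whose scaling factor, 1.30, was the highest of the 9. All 10 progenitor markers were detected in every library. In whole muscle, fewer progenitors and less RNA per progenitor cannot be told apart.

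Levels of different genes were compared in FPKM, which corrects for gene length. In blank muscle the highest were Pi16 at 26.6 ± 3.96 FPKM and Dpt at 26.5 ± 4.11 (SD, n = 3), which overlapped. Mfap5 came next at 13.2 ± 3.89, then Clec3b at 11.3 ± 5.41, Smoc2 at 9.39 ± 4.94, Cd34 at 8.25 ± 1.07 and Scara5 at 5.42 ± 2.04, and each of these overlapped its neighbour in that order. Pdgfra, the defining receptor, was lower at 2.74 ± 0.711 FPKM, and its range still met that of Scara5. Dpp4 at 0.643 ± 0.144 and Hic1 at 0.350 ± 0.0845 were the lowest and overlapped neither each other nor Pdgfra. In SUI muscle the order by mean changed, with Dpt first and Scara5 behind Pi16 at 9.97 ± 7.05 FPKM, a mean that 1 library set, since SUI replicate 1 had 18.1 FPKM and SUI replicates 2 and 3 had 6.44 and 5.39. In stimulated muscle Dpt led at 37.6 ± 23.6 FPKM.

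The 10 genes lie on 9 chromosomes of mRatBN7.2, and Cd34 and Dpt share chromosome 13 but not a neighbourhood (106480043 to 106499832, plus strand, and 77123115 to 77151639, plus strand). Promoter sequence, 250 bases before to 50 after the annotated start, was matched by symbol in RefSeq (GRCr8) for 7 of the 10. The windows of Cd34 (chr13:109008536-109008835, plus strand) and Mfap5 (chr4:157399669-157399968, plus strand) are shown because their fold changes between stimulated and SUI muscle were among the 3 largest of the 10, and that of Dpt (chr13:79656091-79656390, plus strand) because it was among the most abundant and varied least. Capitals mark matches, on either strand, to motifs of promoters. The GC box was searched as GGGCGG. The TATA motif was searched as TATAAA. For the E box the letters searched were CAGCTG.
Cd34: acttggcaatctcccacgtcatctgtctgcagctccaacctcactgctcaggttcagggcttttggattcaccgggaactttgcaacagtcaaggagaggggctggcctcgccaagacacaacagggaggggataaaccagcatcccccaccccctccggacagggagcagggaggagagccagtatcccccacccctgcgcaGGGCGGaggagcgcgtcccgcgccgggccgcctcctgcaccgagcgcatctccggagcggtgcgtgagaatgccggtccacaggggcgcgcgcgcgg
Mfap5: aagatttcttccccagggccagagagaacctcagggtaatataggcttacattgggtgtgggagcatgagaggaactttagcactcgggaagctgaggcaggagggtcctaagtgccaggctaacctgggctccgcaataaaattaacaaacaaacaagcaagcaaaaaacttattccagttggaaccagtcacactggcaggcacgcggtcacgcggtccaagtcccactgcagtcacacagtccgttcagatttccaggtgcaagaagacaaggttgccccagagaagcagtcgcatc
Dpt: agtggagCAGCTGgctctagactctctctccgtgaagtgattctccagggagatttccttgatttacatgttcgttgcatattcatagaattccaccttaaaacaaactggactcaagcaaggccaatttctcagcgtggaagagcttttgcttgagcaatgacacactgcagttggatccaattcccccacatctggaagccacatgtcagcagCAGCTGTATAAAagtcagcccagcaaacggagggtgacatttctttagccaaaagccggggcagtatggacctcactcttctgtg
The Dpt window held a TATA box that began 29 bases before the start, next to an E box and without overlap, and another E box further out. The Cd34 window, at 66.3% G and C against a median of 51.7% over 33469 windows, held a GC box, and the Mfap5 window, at 51.7%, held none of these. Of the 7 windows 2 had a GC box (33.1% of all windows), 1 a TATA box (14.2%) and 1 an E box (15.1%). None of the 7 held the TEAD motif, searched as GGAATG and present in 14.2% of all windows. The AP-1 motif, searched as TGACTCA and present in 4.63%, was not matched, nor was the CArG box, present in 1.64%. A match or its lack describes only the letters of these windows.

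Across the 9 libraries the markers were highest, on average, in stimulated replicate 2. Each gene's log2 CPM was set against its own mean over the libraries. The mean deviation of the 10 was 1.40 in stimulated replicate 2, against -0.60 and 0.30 in stimulated replicates 1 and 3, -0.56, -0.27 and -0.63 in the SUI libraries and 0.07, 0.10 and 0.18 in the blank libraries. In stimulated replicate 2 every marker lay above its own mean, by 0.96 to 1.83. Of the 10 markers, 9 had their highest CPM there, while 16.7% of all 16256 tested genes did. These means of the blank libraries lay close together, and those of the 3 stimulated libraries spanned a wider range than those of the SUI and blank groups together. The blank means average markers that went both ways, since in blank replicate 1 single markers ran from -0.84 (Smoc2) to 1.09 (Dpp4).

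**Figure D1:**
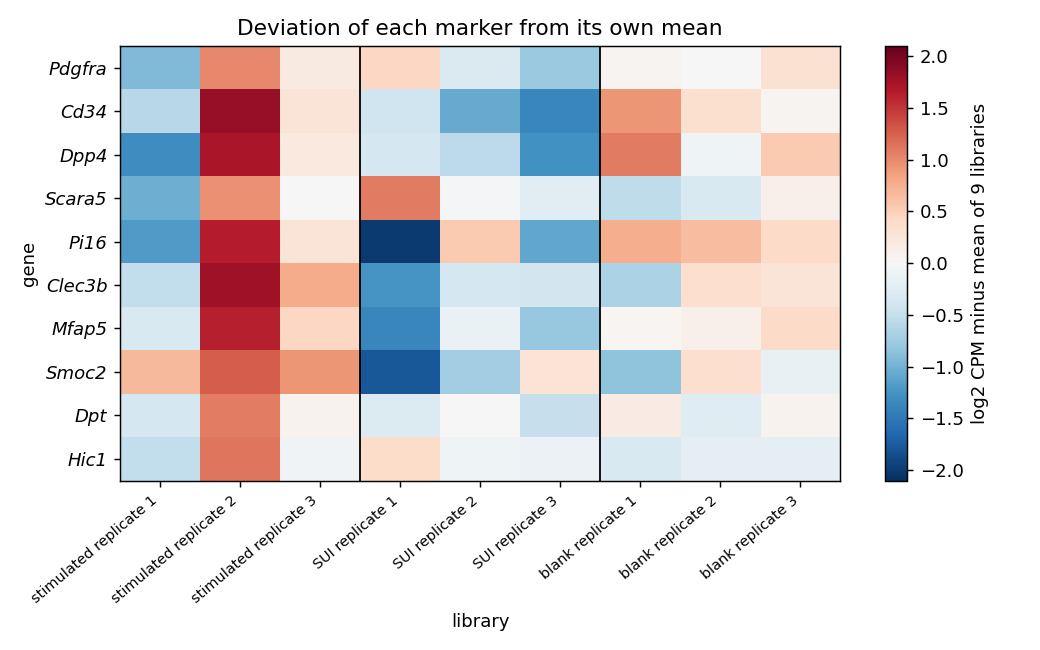
Deviation of each of the 10 markers (rows) from its own mean over the 9 libraries (columns, by group), in log2 CPM, with red above and blue below the mean. All 10 cells of stimulated replicate 2 are red, while SUI replicate 1 mixes a red Scara5 with a deep blue Pi16.

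Stimulated muscle was first set against SUI muscle, the comparison that asks what the current did in operated rats. Of the 10 markers 9 had a higher level in stimulated muscle in the fitted model, as 52.6% of all genes did, with a median log2 fold change of 1.26, against 0.02 over all genes tested. The largest differences were those of Cd34, Clec3b, Mfap5 and Smoc2, at 1.75, 1.58, 1.49 and 1.48 on the log2 scale. None of the 10 passed the threshold of an adjusted p under 0.05 (edgeR's quasi-likelihood test, adjusted over all genes), where 0.0123% of all genes did. Adjusted p ran from 0.501 to 0.968. At an unadjusted p under 0.05, 4 of the 10 were higher, against 5.23% of all genes. Without stimulated replicate 2 the median log2 fold change was 0.25, and 7 of the 10 stayed positive. In that fit 1 of the 10, Smoc2, had an unadjusted p under 0.05.

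SUI muscle set against blank muscle asks what the operation did. Of the markers 8 had lower levels in SUI, as 49.2% of all genes did, with a median log2 fold change of -0.52, against 0.01 over all genes. None passed the threshold, and 0.0% of all genes did, with adjusted p of 0.565 to 0.845. By unadjusted p, 1 marker, Cd34, was lower, against 5.34% of all genes. The CPM values of SUI and blank did not overlap for Cd34, Dpp4 and Mfap5, which were lower in SUI as 7.77% of all genes were, and for Hic1, which was higher in SUI as 7.34% were. In FPKM only Cd34 kept its groups apart.

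Stimulated against blank muscle shares libraries with both other comparisons. All 10 markers had a positive log2 fold change, as 54.3% of all genes did, with a median of 0.40 against 0.04 over all genes, and adjusted p ran from 0.898 to 0.992, where 0.00615% of all genes passed. At an unadjusted p under 0.05, 1 marker, Smoc2, was higher, against 1.96% of all genes. Without stimulated replicate 2, 8 of the 10 were negative, the median was -0.18 and none had an unadjusted p under 0.05. Clec3b and Smoc2 stayed positive, at 0.22 and 0.94. A test of any difference among the 3 groups called none of the 10, with adjusted p of 0.697 to 0.878 and 0.00615% of all genes called.

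**Figure D2:**
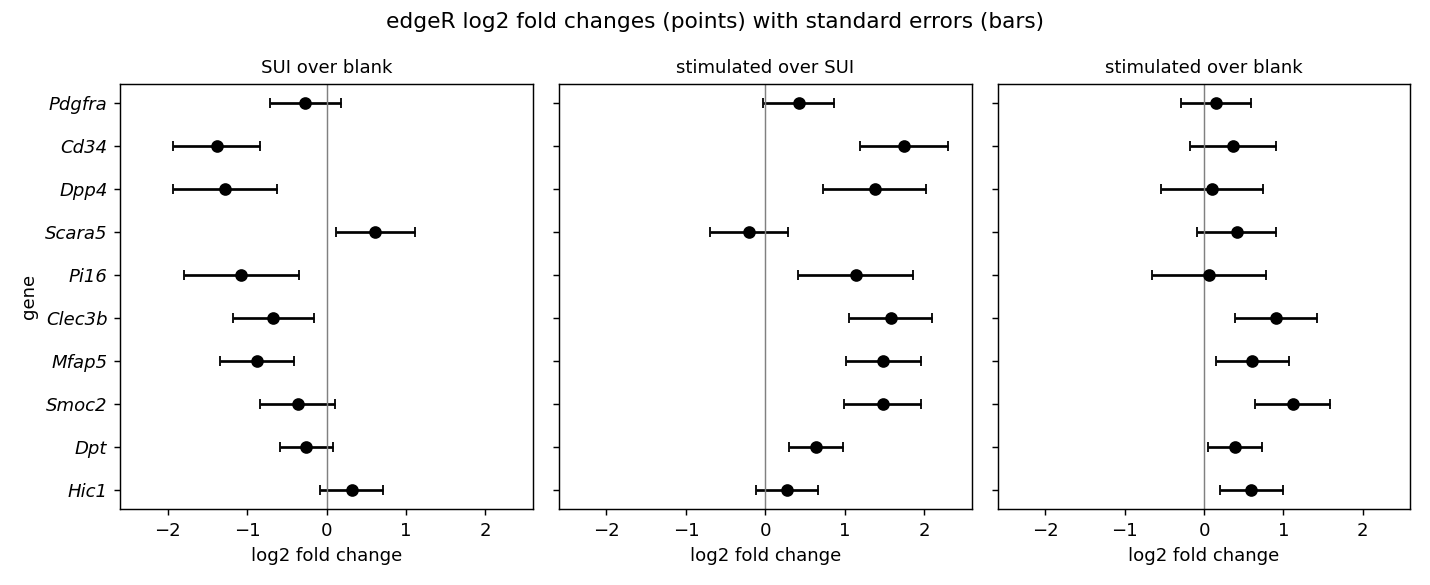
Log2 fold changes (points) with standard errors (bars) of the 10 markers in the 3 comparisons, from the edgeR fit on all 9 libraries. Points of stimulated over SUI lie to the right of 0 except that of Scara5, and those of SUI over blank to the left except those of Scara5 and Hic1.

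Pdgfra, the receptor that defines these cells, measured 10.8, 41.0 and 23.2 CPM in stimulated libraries, 27.6, 16.6 and 11.9 in SUI and 21.4, 20.6 and 25.6 in blank. Blank libraries were even, and the stimulated group held both the highest and the lowest value of the 9. The log2 fold change was 0.42 ± 0.44 SE in stimulated over SUI and -0.27 ± 0.44 in SUI over blank, each within its error. Without stimulated replicate 2 that of stimulated over SUI was -0.14.

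Cd34, the sialomucin shared with endothelium, measured 9.42, 50.3 and 17.0 CPM in stimulated, 10.5, 6.82 and 5.47 in SUI and 27.0, 17.9 and 14.7 in blank libraries. All SUI values lay below all blank values, while stimulated replicate 1 lay among the SUI libraries. In the edgeR fit the log2 fold change was 1.75 ± 0.56 in stimulated over SUI (edgeR adjusted p = 0.501) and -1.39 ± 0.55 in SUI over blank (edgeR adjusted p = 0.565). Without stimulated replicate 2 the first was 0.80. The summed CPM of 10 endothelial markers, all detected, was 387 to 474 in stimulated, 298 to 319 in SUI and 257 to 368 in blank libraries. That sum was higher in every stimulated library than in every SUI library, and its part in the Cd34 result was not tested.

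Dpp4, a surface peptidase, measured 1.21, 9.91 and 3.46 CPM in stimulated, 2.33, 2.04 and 1.23 in SUI and 6.43, 2.84 and 4.41 in blank libraries. Stimulated replicate 1 and SUI replicate 3 were lowest and almost equal. Its log2 fold change was 1.38 ± 0.65 in stimulated over SUI and 0.32 without stimulated replicate 2. In SUI over blank it was -1.28 ± 0.65.

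Scara5, a scavenger receptor that takes up ferritin, measured 8.21, 32.7 and 16.6 CPM in stimulated, 35.9, 16.3 and 14.2 in SUI and 11.6, 13.5 and 18.2 in blank libraries. It was the marker whose highest value fell outside stimulated replicate 2, in SUI replicate 1. The log2 fold change was -0.21 ± 0.49 in stimulated over SUI and 0.62 ± 0.50 in SUI over blank. Without SUI replicate 1 these were 0.35 and 0.06, and without stimulated replicate 1 the first was 0.16, so the direction against SUI turned on single libraries.

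**Figure D3:**
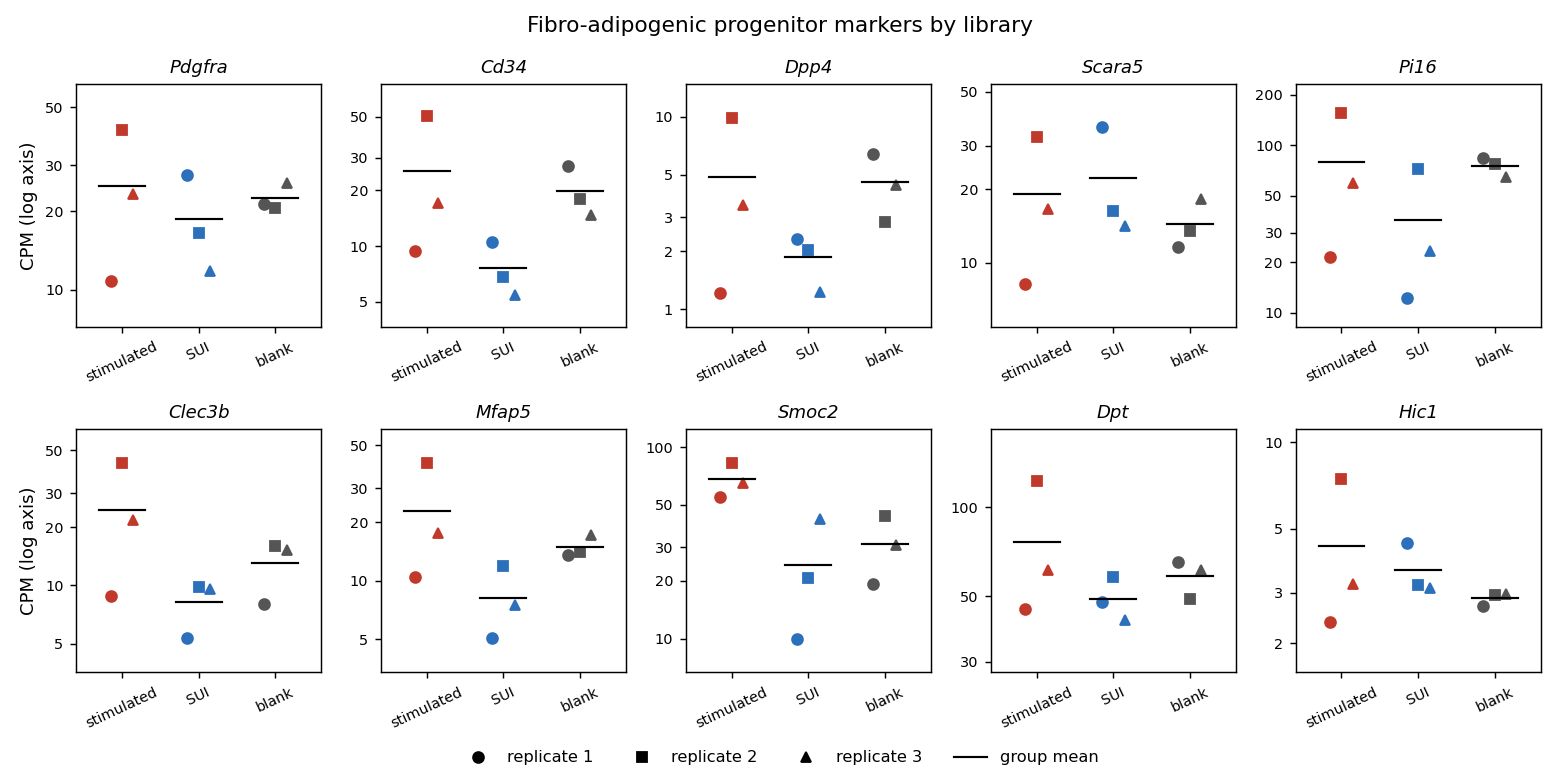
CPM (log axis) of each marker in the stimulated, SUI and blank libraries, with the replicate number as the symbol and the group mean as a bar. Stimulated replicate 2 is the top point in 9 panels, and Smoc2 is the panel in which all 3 stimulated points lie above the other 6.

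Pi16, a secreted peptidase inhibitor family member, was the most uneven marker. It measured 21.6, 156 and 59.9 CPM in stimulated, 12.3, 72.1 and 23.3 in SUI and 84.1, 77.8 and 65.0 in blank libraries. Blank libraries were close together, whereas SUI and stimulated libraries each spread several-fold and overlapped both other groups. In the edgeR fit the log2 fold change was 1.14 ± 0.73 in stimulated over SUI and -1.08 ± 0.73 in SUI over blank. The first was 0.18 without stimulated replicate 2 and 2.17 without SUI replicate 2. With single libraries left out the value in SUI over blank ran from -2.11, without SUI replicate 2, to -0.68, without SUI replicate 1. In FPKM, Scara5 was 3.05 times Pi16 in SUI replicate 1, against 0.142 to 0.634 times in the other 8 libraries, a contrast picked after the values were seen. SUI replicate 1 was also the library with the lowest sum of muscle fibre markers.

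Clec3b, which encodes the plasminogen-binding protein tetranectin, measured 8.85, 43.1 and 21.7 CPM in stimulated, 5.32, 9.75 and 9.61 in SUI and 7.97, 16.1 and 15.2 in blank libraries. Only stimulated replicate 1 kept the stimulated and SUI ranges from parting. Its log2 fold change was 1.58 ± 0.52 in stimulated over SUI (edgeR adjusted p = 0.507), and 0.90 without stimulated replicate 2. In SUI over blank it was -0.67 ± 0.51.

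Mfap5, a glycoprotein of elastic microfibrils, measured 10.5, 40.5 and 17.6 CPM in stimulated, 5.07, 11.9 and 7.54 in SUI and 13.5, 14.1 and 17.3 in blank libraries. Blank values were even and all above SUI, and stimulated values overlapped both. The log2 fold change was 1.49 ± 0.47 in stimulated over SUI (edgeR adjusted p = 0.501), and 0.79 without stimulated replicate 2. In SUI over blank it was -0.88 ± 0.47.

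Smoc2, a calcium-binding matricellular protein gene of the SPARC family, followed another course. It measured 55.0, 83.1 and 65.1 CPM in stimulated, 10.0, 20.8 and 42.2 in SUI and 19.2, 43.8 and 30.8 in blank libraries. All 3 stimulated libraries lay above all SUI and all blank libraries, in FPKM too, as 1 of the 10 markers did in each of these comparisons, where 9.52% and 7.9% of all genes did. In the edgeR fit the log2 fold change was 1.48 ± 0.48 in stimulated over SUI (edgeR adjusted p = 0.507) and 1.11 ± 0.48 in stimulated over blank (edgeR adjusted p = 0.898). Without stimulated replicate 2 the value against SUI was 1.30, and over all 9 single libraries left out it ran from 1.12 to 2.14. In stimulated replicate 1, Smoc2 was 0.68 log2 units above its own mean while the other 9 markers averaged 0.75 below theirs (-0.75). Between SUI and blank it differed by -0.36 ± 0.47, and this value was -0.0062 without SUI replicate 1 and -1.02 without SUI replicate 3.

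Dpt, the gene of the collagen-binding matrix protein dermatopontin, measured 45.1, 123 and 61.2 CPM in stimulated, 47.7, 58.2 and 41.5 in SUI and 65.4, 48.8 and 61.4 in blank libraries. Apart from stimulated replicate 2 its levels were similar in all groups. Its log2 fold change was 0.64 ± 0.34 in stimulated over SUI, 0.12 without stimulated replicate 2, and -0.25 ± 0.34 in SUI over blank.

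Hic1, a transcriptional repressor that marks quiescent mesenchymal progenitors in mouse muscle, measured 2.38, 7.42 and 3.22 CPM in stimulated, 4.44, 3.19 and 3.12 in SUI and 2.70, 2.94 and 2.97 in blank libraries. Its 3 SUI values stood just above the 3 blank values in CPM and overlapped them in FPKM. The log2 fold change was 0.32 ± 0.40 in SUI over blank, and in stimulated over SUI 0.27 ± 0.39 with all libraries and -0.36 without stimulated replicate 2.

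**Figure D4:**
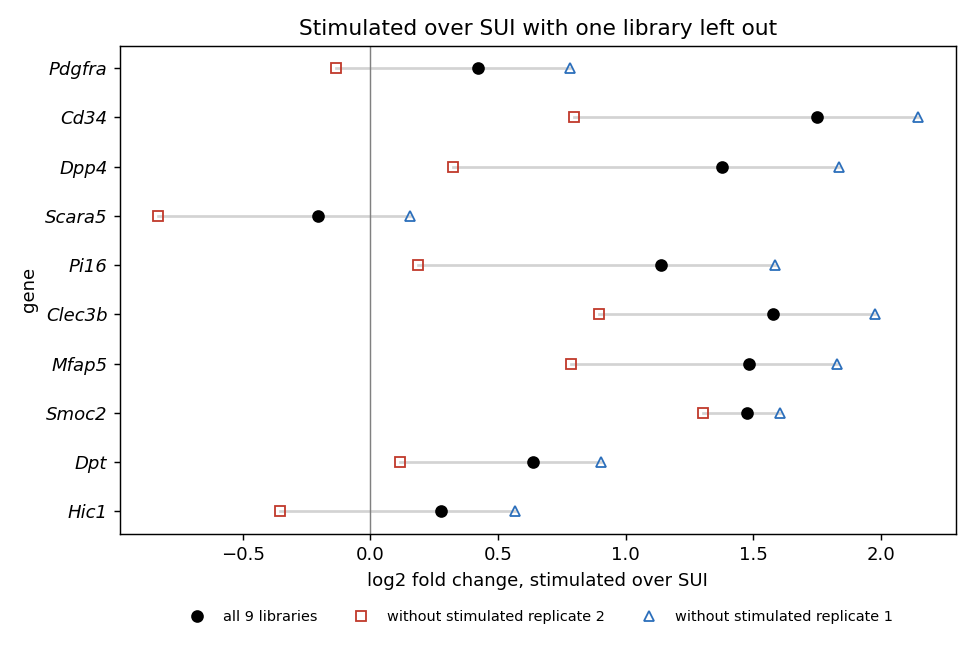
Log2 fold change of each marker in stimulated over SUI from all 9 libraries (filled circles), without stimulated replicate 2 (squares) and without stimulated replicate 1 (triangles). Smoc2 moves least, being 1.48 with all libraries and 1.30 without replicate 2, while Pdgfra, Scara5 and Hic1 lie below 0 without it.

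The markers also differed in how far their deviations lay from one another. The root mean square difference between a marker's centred log2 CPM and the mean of the other 9 was smallest for Dpt, at 0.268, and largest for Smoc2 at 0.876, Pi16 at 0.762 and Scara5 at 0.735. Among pairs, Hic1 and Dpt were closest at 0.327, followed by Hic1 and Scara5 at 0.328 and Clec3b and Mfap5 at 0.332. Pi16 and Scara5 were the farthest apart at 1.25. The measure was not scaled for how much a gene varied, so genes that vary little can score as close. Dpt and Hic1 had the lowest SD of log2 CPM over the libraries, 0.463 and 0.485, and Pi16 the highest, 1.17. Of 8339 other genes with a mean of at least 5 CPM, those nearest the mean profile of the 10 were Axl, a receptor tyrosine kinase gene (0.193), the phosphatase gene Ptprj (0.196), Cpq (0.203), Man1a1 (0.221) and Cd276 (0.231). Axl measured 15.4, 62.4 and 31.6 CPM in stimulated, 18.6, 16.6 and 13.1 in SUI and 19.2, 28.8 and 24.6 in blank libraries. The mean profile itself had a root mean square of 0.601 over the 9 libraries. Like that profile, all of these nearest genes were highest in stimulated replicate 2.

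Other fibroblast and progenitor genes, 30 in number and all tested, were set beside the markers. In stimulated over SUI 24 were higher and 6 lower, with a median log2 fold change of 0.58, where 52.6% of all genes were higher. In SUI over blank 6 were higher and 24 lower, with a median of -0.66, where 49.2% of all genes were lower. In stimulated over blank 15 were higher and 15 lower, with a median of 0.01, whereas all 10 markers were higher there. None was called in any of the 3 with edgeR. At an unadjusted p under 0.05, 10 were higher in stimulated over SUI, against 5.23% of all genes, and 11 lower in SUI over blank, against 5.34%. The mean deviation of the 30 was 0.90 in stimulated replicate 2, but -0.43 and 0.22 in stimulated replicates 1 and 3. It was -0.15, -0.54 and -0.61 in the SUI libraries, so stimulated replicate 1 lay among them. Col15a1, a basement membrane collagen gene, measured 103, 155 and 99.8 CPM in stimulated, 21.0, 19.5 and 52.9 in SUI and 70.8, 92.8 and 58.1 in blank libraries. Like Smoc2, its stimulated values lay above all others (1.94 ± 0.40 over SUI, edgeR adjusted p = 0.274). The proteoglycan gene Lum (1.56 ± 0.34) and the metalloprotease gene Adam12 (2.16 ± 0.45) were also separated between stimulated and SUI. Of the 30 genes, 10 were separated higher in stimulated over SUI, against 9.52% of all genes. In SUI over blank 11 were separated lower, against 7.77%, and 1 higher, against 7.34%. In stimulated over blank 2 were separated higher, Col15a1 among them, against 7.9%, and 1 lower, against 4.72%.

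The ligands and receptors of the PDGF family, 6 genes with Pdgfra among them, gave a median log2 fold change of 0.30 in stimulated over SUI and -0.16 in SUI over blank, with none called. Pdgfc, which encodes a ligand of PDGFRA, measured 2.93, 4.49 and 3.06 CPM in stimulated, 1.13, 2.50 and 1.63 in SUI and 5.85, 3.77 and 3.70 in blank libraries. Its SUI values lay below those of both other groups (0.99 ± 0.35 in stimulated over SUI, edgeR adjusted p = 0.521). Separation in these directions held for 9.52% of all genes between stimulated and SUI and for 7.77% between SUI and blank. The sister receptor gene Pdgfrb differed by -0.02 ± 0.25 in stimulated over SUI. In SUI over blank it was 0.48 ± 0.25, with SUI values above blank, as 7.34% of all genes were. Of the 6 genes 2 were separated lower in SUI over blank and 1 higher.

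Summed levels of collagen genes and of markers of other cell types are given for comparison, and no gene of these lists was called with edgeR in any comparison. Fibrillar and type VI collagen genes, 8 of 8 detected, summed to 1155 to 3900 CPM in stimulated, 473 to 907 in SUI and 1602 to 1860 in blank libraries. The 3900 CPM was that of stimulated replicate 2. Their median log2 fold change was 1.52 in stimulated over SUI and -1.13 in SUI over blank, against 1.26 and -0.52 for the 10 markers. In stimulated over SUI 8 were higher at an unadjusted p under 0.05 (5.23% of all genes) and 6 were separated higher (9.52%). In SUI over blank 7 were lower at that p (5.34%) and 8 were separated lower (7.77%). Leukocyte markers, 9 of 10 found, summed to 62.3 to 358 CPM in stimulated, 92.4 to 155 in SUI and 132 to 208 in blank libraries, so that the stimulated range overlapped both others. Their highest sum was in stimulated replicate 2 and their lowest in stimulated replicate 1, the libraries that were also highest and lowest within the group for all 10 progenitor markers, and their part in the results was not tested. Tendon markers, 7 of 7 detected, summed to 65.6 to 122 CPM in stimulated, 24.3 to 53.2 in SUI and 31.5 to 155 in blank libraries, and Kera was at 0 in SUI replicate 3 and Tnmd at 0 in blank replicate 1.

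Smooth muscle and pericyte markers summed to 3729 to 4446 CPM in stimulated, 3310 to 4907 in SUI and 3402 to 3954 in blank libraries. Nerve sheath markers summed to 101 to 165, 63.3 to 137 and 110 to 207 CPM in stimulated, SUI and blank libraries. Adipocyte markers summed to 325 to 518, 288 to 403 and 263 to 370 CPM, and satellite cell markers to 61.6 to 72.2, 50.7 to 70.1 and 57.2 to 72.7 CPM, in that order of groups. Ranges of all 4 lists overlapped between groups. The mesothelial list had 5 of 6 genes found and summed to at most 1.52 CPM in any library, with Upk3b at 0 in 8 of the 9.

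**Figure D5:**
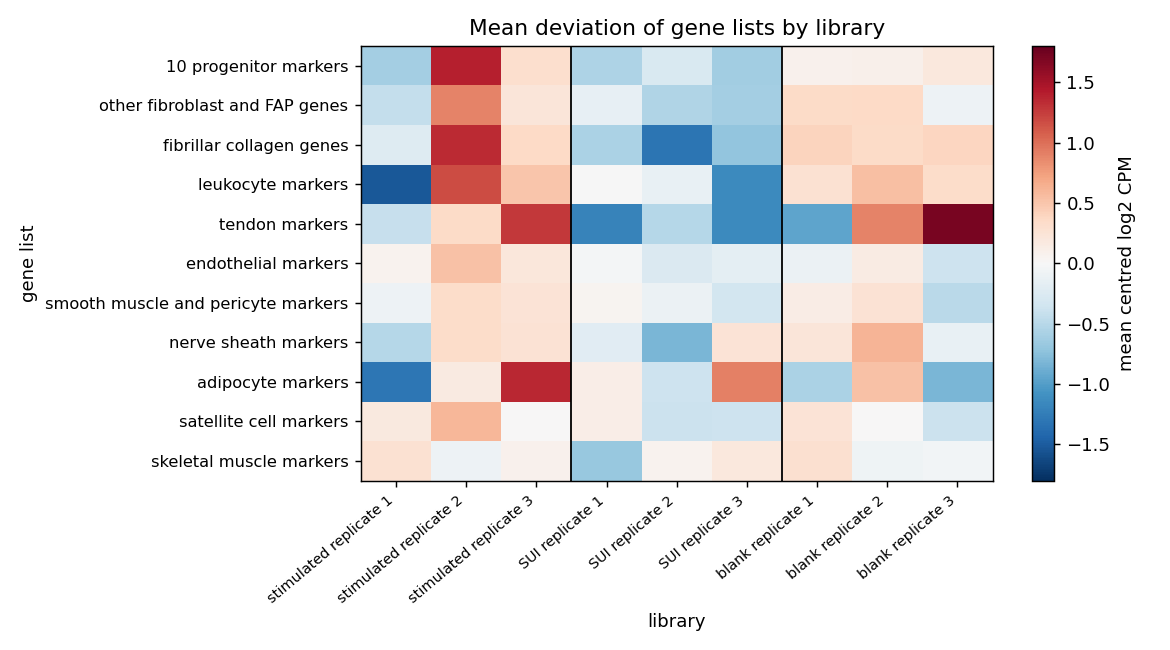
Mean centred log2 CPM of the 10 progenitor markers and of 10 other gene lists (rows) in each library (columns, by group). The rows of other fibroblast genes, collagens and leukocyte markers share the red cell of stimulated replicate 2 with the progenitor markers, and the skeletal muscle row is pale there. On this measure endothelial, satellite cell, and smooth muscle and pericyte markers were also highest in that library. Their values there were 0.53, 0.60 and 0.33, against 1.40 for the progenitor markers. By summed CPM satellite cell markers (65.4 there) were highest in blank replicate 2 (72.7). Smooth muscle and pericyte markers (3729 there) were highest by that sum in SUI replicate 2 (4907).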

How the data were processed

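Group and replicate number came from the sample titles. Library names call the SUI group sham, whereas titles describe the full model and were followed. All 9 libraries carry 1 batch label. Per the submitters' processing notes, the build was mRatBN7.2 and the tools included RSEM 1.3.1, Bowtie2 and DESeq2 1.4.5. A strand setting is not stated. The authors deposited expected counts that are whole, per the file headers, and these were used as deposited. The authors also deposited FPKM, per the file headers, used for levels between genes and for alternatives. Overlapping or antisense genes could share reads.

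Counts were filtered with filterByExpr, leaving 16256 genes, and scaled by TMM. The test was edgeR's quasi-likelihood test (edgeR 4.0.16, R 4.3.3, robust) with all 9 libraries in 1 fit and Benjamini-Hochberg adjustment over all genes at 0.05. SE is the size of the log2 fold change over the square root of F. Centred values are log2 CPM with a prior count of 2. Scripts were tested on simulated data. Alternatives were DESeq2 1.42.0, voom (limma 3.58.1) with sample weights, other scalings and filters, a replicate block, only the libraries compared, limma on log2(FPKM + 1) and log2(FPKM + 0.1), and each library left out.

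All members are named, with up to 3 genes of each other list by smallest p, and the 5 genes nearest the members' mean profile. Members and lists were chosen with earlier results of these data known. Promoters are from RefSeq (GRCr8), searched on both strands, and Clec3b, Smoc2 and Scara5 have no printed window.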

Additional observations from a re-analysis of the deposited data

How the results depend on the processing

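No marker passed an adjusted p under 0.05 in any comparison under any alternative, and the lowest adjusted p, 0.0957, was that of Cd34 in stimulated over SUI with DESeq2. Counts of genes called depended on the tool. In SUI over blank edgeR called 0 and DESeq2 176, and leaving out single libraries gave 0 to 1. In stimulated over SUI edgeR called 2, DESeq2 208, voom 48, library totals 1, and the fit on the libraries compared and both FPKM fits 0, with 0 to 3 when single libraries were left out. In stimulated over blank edgeR called 1, DESeq2 21, the fit on the libraries compared and that on log2(FPKM + 1) 0, with 0 to 1 when single libraries were left out. The cause was not tested. After removal of each group's mean, same-numbered libraries correlated over genes at -0.218 to 0.113, and 1 of 9 pairs passed 0.1. With 3 libraries per group these values cannot decide whether the replicate numbers pair the libraries. With the replicate block 1 gene was called in stimulated over SUI and 0 in stimulated over blank, where Dpp4 became -0.13 and Pi16 -0.48.

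The median log2 fold change of the markers in stimulated over SUI was 0.63 on log2(FPKM + 1) and 0.25 to 1.60 with single libraries left out. The first scale compresses low genes, but its part in the lower median was not tested. On log2(FPKM + 0.1), Cd34, Clec3b and Mfap5 were also below their edgeR values, at 1.28, 1.19 and 1.19, and Smoc2 was 1.53. With voom Cd34 was 1.46, Clec3b 1.22, Mfap5 1.05 and Smoc2 1.32. In stimulated over blank single libraries left out gave -0.18 to 0.77, and in SUI over blank -0.81 to -0.43. Without both blank replicate 1 and stimulated replicate 2, chosen after seeing the data, 0 genes were called in stimulated over SUI and in stimulated over blank, and the medians were 0.24 and -0.25. There Pdgfra was -0.16 and Hic1 -0.38 over SUI, both reversed, and Scara5, negative with all libraries too (-0.21), was -0.86. Over blank, Pdgfra was -0.45, Cd34 -0.32, Dpp4 -0.64, Pi16 -0.82, Clec3b -0.044, Mfap5 -0.17, Hic1 -0.094, Dpt -0.067 and Scara5 -0.36. Other reversals were Hic1 at -0.024 in stimulated over SUI on log2(FPKM + 0.1), and in stimulated over blank Pdgfra at -0.015, Dpp4 at -0.020 and Pi16 at -0.30 with voom, Pi16 at -0.26 on log2(FPKM + 1), and Dpp4 at -0.12 and Pi16 at -0.29 on log2(FPKM + 0.1).

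With single libraries left out, stimulated over SUI ran from -0.14 to 0.83 for Pdgfra, -0.36 to 0.57 for Hic1 and -0.83 to 0.35 for Scara5. Stimulated over blank ran from -0.40 to 0.51 for Pdgfra, -0.59 to 0.76 for Cd34, -0.96 to 0.56 for Dpp4, -0.89 to 0.51 for Pi16, 0.22 to 1.31 for Clec3b, -0.090 to 0.96 for Mfap5, -0.036 to 0.89 for Hic1, -0.14 to 0.65 for Dpt and -0.22 to 0.77 for Scara5. No marker reversed between SUI and blank. Library totals alone moved the median of all genes to 0.19 in SUI over blank, -0.11 in stimulated over SUI and 0.09 in stimulated over blank. Hic1 had 102, 380 and 301 counts in blank replicates 1, 2 and 3, where counting error is not small beside the spread between those blank libraries. Its SD within groups, pooled over all 3, was 0.52 log2 CPM. Dpp4 was also low, with 120 counts in SUI replicate 3 and 159 in stimulated replicate 1.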
